A study of Mus musculus with 6 samples.

Results

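The regions described here are the accessible regions of mouse chromosome 18 in NIH/3T3 fibroblasts, 2109 of the 63430 regions in an ATAC-seq table. They were taken by their chromosome alone. The chromosome itself was chosen by the measured shift of its signal between the 2 groups of libraries, so that shift is given as a description and no test of it is made. Of the 2109 regions, 315 were promoter regions, with a centre at most 1000 bp from the transcription start site (TSS) of the gene that the authors assigned, and 1794 were other regions. Of the other regions 303 had an assigned gene whose TSS lay farther away, and 1491 had none. Testing asked for a signal of 10 or more in 3 or more libraries. This was met by 312 promoter regions and 1709 other regions, and the 3 and 85 regions below it had a mean signal of at most 10.9.

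NIH/3T3 is a fibroblast line derived from mouse embryos. All 6 libraries came from cells of this line that carried Cas13d, knocked in. Cas13d is a CRISPR nuclease that a guide RNA steers to an RNA target, which it cuts. Of these libraries 3 came from cells transfected with a guide RNA against Actg1, the gene of cytoplasmic gamma-actin, and 3 from cells transfected with a guide against GFP, the control. The study asked how perturbing a gene at the DNA or the RNA level induces transcriptional adaptation, the altered expression of related genes. The labels call the libraries replicates and do not name separate cultures, so the calls below measure the spread between these samples, which may be technical. The table holds no RNA values, and the fall of the Actg1 mRNA was not measured here.

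ATAC-seq uses the transposase Tn5, which inserts sequencing adapters where DNA is not wrapped tightly, so the reads of a region measure how open it is. Promoters of expressed genes are open in most cell types, while open regions away from genes, many of them enhancers, differ more between cell types and states. Chromosome 18 of the mouse carries, among others, the clustered protocadherin genes of cell-surface adhesion proteins, the desmosomal cadherins, and several Smad genes of TGF-beta signalling. As each library pools its cells, a lower signal in every cell and the loss of a region in some of them cannot be told apart.

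The signal is a read count that the authors normalized and rounded, and estimated reads in regions lay between 5675931 and 9526231 per library. Between GFP guide replicates 1 and 2 the difference did not exceed the sampling noise (chi-square per region 0.991). In the other pairs within a group the difference was little above that noise (1.03 to 1.12). Replicates 1 and 2 of the GFP guide were therefore averaged and count as 1 sample. The GFP guide thus has 2 samples and the Actg1 guide 3. In the whole table, promoter regions were present for 7 of 9 fibroblast marker genes, among them Col1a1, Fn1 and Vim, while Thy1 and Pdgfra had none. They were present for 1 of 3 epithelial markers (Krt8) and for none of the 2 leukocyte and 2 endothelial markers. Log2 fold changes are those of the Actg1 guide over the GFP guide on the scale log2(signal + 1), with the standard error (SE) of a linear model (limma) fitted to all 61327 regions that passed the filter. A region was called higher or lower at a Benjamini-Hochberg adjusted p under 0.05 over all of these.

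Chromosome 18 as a whole carried less signal in the Actg1 guide libraries. Its summed signal was 240116, 241422 and 245476 in GFP guide replicates 1, 2 and 3, and 228268, 227783 and 228974 in Actg1 guide replicates 1, 2 and 3. Every Actg1 guide library lay below every GFP guide library, and the mean of the sums fell by 6.08%. The share of all signal that lay on the chromosome was 3.11%, 3.10% and 3.13% with the GFP guide and 2.97%, 2.97% and 2.98% with the Actg1 guide, again without overlap. The summed signal of the promoter regions fell by 6.68% and that of the other regions by 5.70%, each without overlap between the groups.

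Of the 312 tested promoter regions, 26 were called higher and 85 lower. These are 8.33% and 27.2% of them, where 14.0% of all promoter regions in the table were called higher and 18.7% lower (32.7% in either direction). The median log2 fold change was -0.09 over the promoter regions of chromosome 18 and -0.02 over all promoter regions, and 67.0% of the former lay below 0. Of the 1709 other regions, 336 were called higher and 423 lower, 19.7% and 24.8%, where 22.2% and 21.1% of all other regions were called (43.3% in either direction). Their median was -0.07, against 0.00 over all other regions, and 56.0% lay below 0. As the chromosome was chosen for this contrast, nothing is read from these shares. The counts depended on 1 library: without GFP guide replicate 3, which leaves 1 control sample assumed to vary like the others, 8 promoter regions were called higher and 24 lower, and 213 other regions higher and 202 lower. Without Actg1 guide replicate 1, the promoter regions called higher numbered 17.

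Changes of at least 2-fold were mostly away from promoters. Among the called regions, 4 promoter regions were at least 2-fold higher and 5 at least 2-fold lower, 1.28% and 1.60% of those tested, beside 1.16% and 1.29% of all promoter regions. Of the other regions, 119 were at least 2-fold higher and 148 at least 2-fold lower, 6.96% and 8.66%, beside 7.30% and 7.15% of all other regions. The interquartile range of the log2 fold change ran from -0.24 to 0.04 in promoter regions and from -0.45 to 0.33 in other regions. The kinds also differed in signal. In the lowest of 5 classes of mean signal, 9.09% of 22 promoter regions were at least 2-fold higher and 13.6% lower. Of the other regions in that class 12.5% were higher and 12.5% lower, beside 13.1% and 12.1% over all chromosomes. In the highest class these shares were 0.0% and 0.0% of 181 promoter regions, and 0.0% and 1.12% of 179 other regions. Over all chromosomes they were 0.0% and 0.04% of promoter regions, and 0.33% and 0.88% of other regions.

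Ordered by their medians, chromosome 18 was the second lowest of 20 chromosomes for promoter regions. Only X, at -0.17, was lower, and chromosome 1, at -0.09, differed from chromosome 18 by less than the standard deviation (SD) between samples of 0.018. For other regions chromosome 18 stood lowest, and X, also at -0.07, could not be separated from it (SD 0.009). The highest medians were those of chromosome 11 for promoter regions, at 0.09, and of chromosome 10 for other regions, at 0.07.

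**Figure D1:**
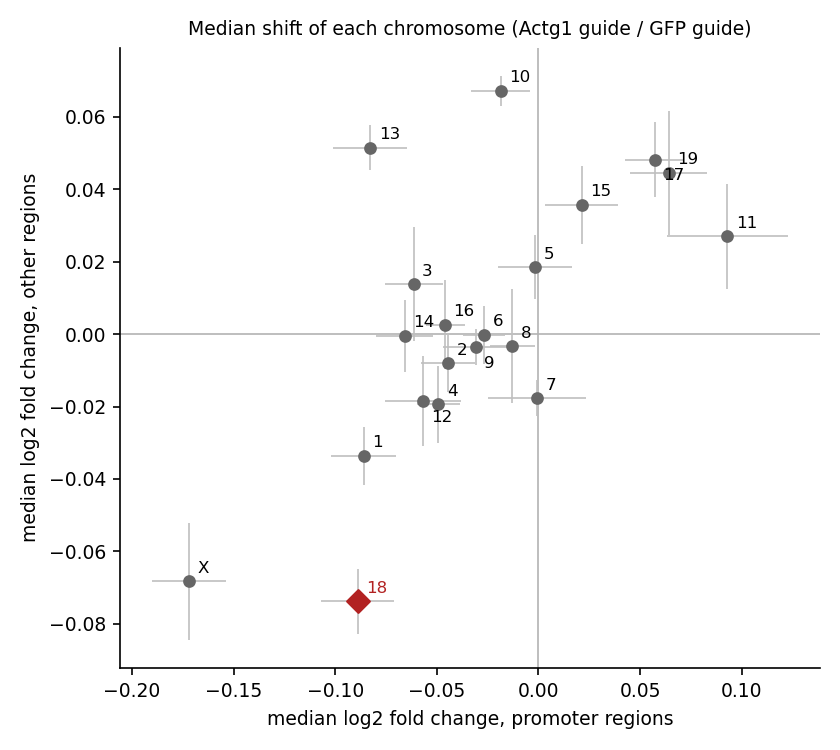
Median log2 fold change (Actg1 guide over GFP guide) of the tested promoter regions (horizontal axis) and other regions (vertical axis) of each chromosome, with bars of 1 SD between samples. Chromosome 18, the red diamond, lies at -0.09 and -0.07, below 0 on both axes, with X lower on the promoter axis.

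Along the chromosome, the promoter medians were below 0 in most steps. The chromosome was divided into steps of 5 Mb counted from its start, numbered from 1, and 14 of these held at least 10 tested promoter regions. In 13 of the 14 the median log2 fold change was below 0. The exception was step 7, from 30 to 35 Mb, at 0.02, with 4 promoter regions called higher and 6 lower of 31. These are 12.9% and 19.4%, beside 14.0% and 18.7% of all promoter regions. Step 2, from 5 to 10 Mb, lay at 0.00 with 3 higher and 2 lower of 18, and its sign turned under several alternatives. Its summed promoter signal was 5139, 5226 and 5113 with the GFP guide and 5329, 5257 and 5244 with the Actg1 guide, 2.50% more and without overlap. The medians of the Actg1 guide libraries were below those of all GFP guide libraries in 11 of the 14 steps and overlapped them in 3. By summed promoter signal, 12 of the 14 steps were lower without overlap, step 2 was higher and step 7 overlapped.

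Among the 14 steps with at least 10 tested promoter regions, the lowest were step 11, from 50 to 55 Mb, and step 9, from 40 to 45 Mb, both at -0.20. Step 11 holds the promoter of Lox, the enzyme that crosslinks collagen. Its promoter regions included 6 called lower (42.9%) and 1 called higher (7.14%) of 14, beside 18.7% and 14.0% of all promoter regions. The summed signal of the 14 was 3754, 3642 and 3790 with the GFP guide and 3417, 3244 and 3294 with the Actg1 guide. All 3 sums of the Actg1 guide were below all 3 of the GFP guide. In step 9, with the promoter of Rbm27, 5 of 11 were called lower and none higher. Without GFP guide replicate 3 no promoter region of step 11 was called, at a median of -0.19, while 4 of step 9 were called lower.

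The other regions varied more from step to step, and 2 neighbouring steps had larger sums with the Actg1 guide. Of 18 steps with at least 10 tested other regions, 15 had a median below 0. Step 7, from 30 to 35 Mb, had a median of 0.04, with 43 regions called higher and 19 lower of 129. Its summed signal was 10231, 10261 and 10650 with the GFP guide and 11080, 11260 and 11208 with the Actg1 guide, 7.03% more without overlap. Step 8, from 35 to 40 Mb, which holds the protocadherin clusters, also lay at 0.04, with 37 higher and 32 lower of 168 and sums 2.17% larger without overlap. Over all chromosomes 22.2% of other regions were called higher and 21.1% lower, and the counts of step 8 lay near these shares. In steps 7 and 8 the promoter sums did not rise with the others: they differed by -2.14% and -2.51%. Step 15, from 70 to 75 Mb, lay at 0.00, and its groups overlapped.

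The lowest median of other regions was in step 17, from 80 to 85 Mb, at -0.26. There 17 regions were called higher and 33 lower of 113, beside 22.2% and 21.1% of all other regions. The sums of the Actg1 guide libraries, 10169 to 10476, were below those of the GFP guide libraries, 11276 to 11794. Without GFP guide replicate 3, step 17 had 13 called higher and 13 lower, at a median of -0.21. In step 11, at -0.20, 15 were called higher and 31 lower of 86. Its sums were 8233, 8248 and 8401 with the GFP guide and 6910, 7042 and 7103 with the Actg1 guide, which is 15.7% less, the largest fall of a sum among the 18 steps of other regions. Step 6, from 25 to 30 Mb, has 3 coding genes in RefSeq and had 2 called higher and 8 lower of 23, at -0.24. Step 4, from 15 to 20 Mb, was about as low, at -0.23, but its 19 regions varied with an SD between samples of 0.147, and its library medians overlapped.

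**Figure D2:**
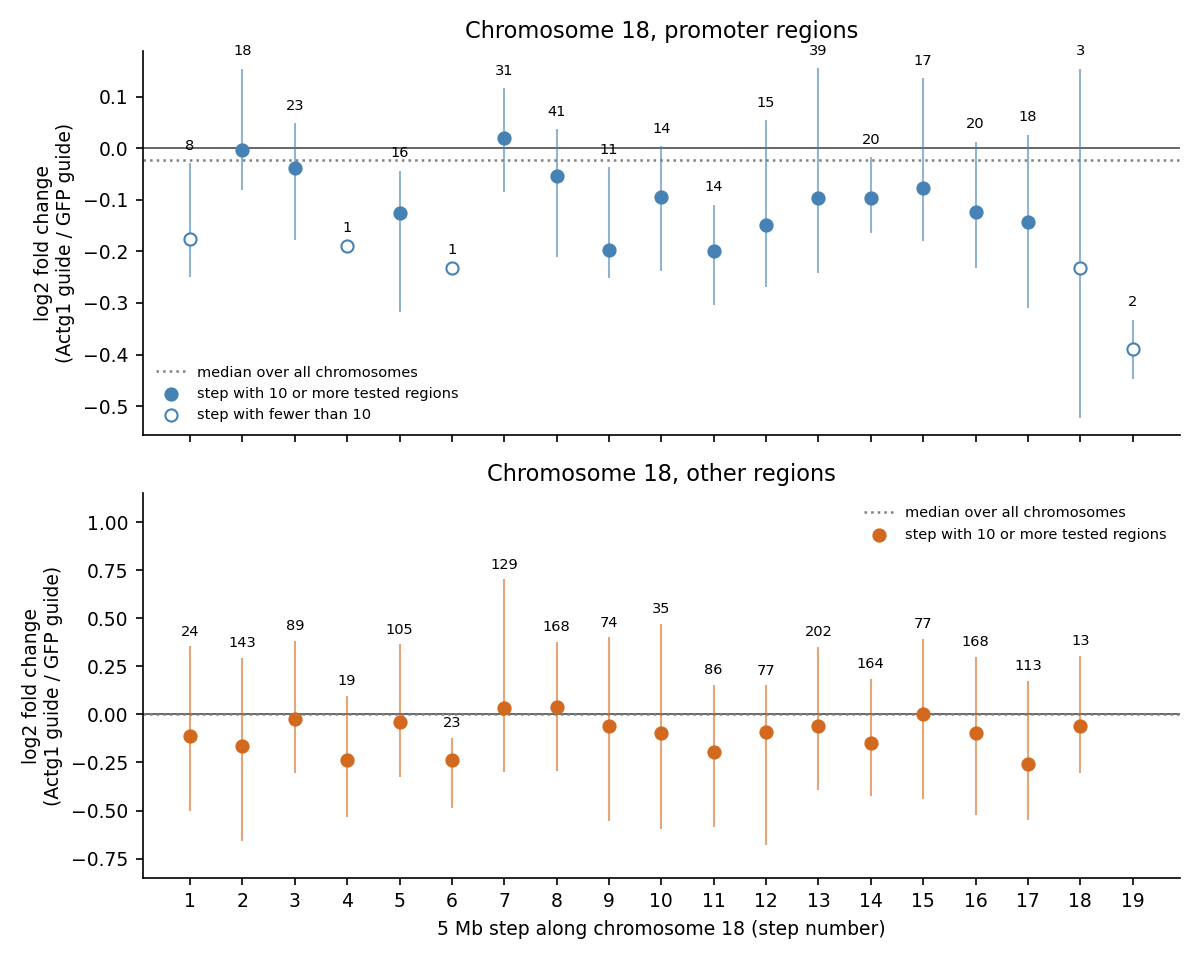
Median log2 fold change (Actg1 guide over GFP guide) in each 5 Mb step of chromosome 18 for promoter regions (top) and other regions (bottom), with bars from the lower to the upper quartile of the regions, the number of tested regions above each bar and a dotted line at the median over all chromosomes. Promoter medians lie below 0 in all filled steps but step 7, and medians of other regions in all but steps 7, 8 and 15.

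Library by library, the other regions of steps 7 and 8 were the only steps in which the medians of all Actg1 guide libraries were above those of all GFP guide libraries. In 8 steps (2, 6, 11, 12, 13, 14, 16 and 17) they were all below, and in the other 8 the groups overlapped. By summed signal, 12 steps were lower without overlap, 2 were higher and 4 overlapped. In step 11 the SD between samples was 0.002 around a shift of -0.20, while in step 2 it was 0.056 around a shift of -0.16.

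**Figure D3:**
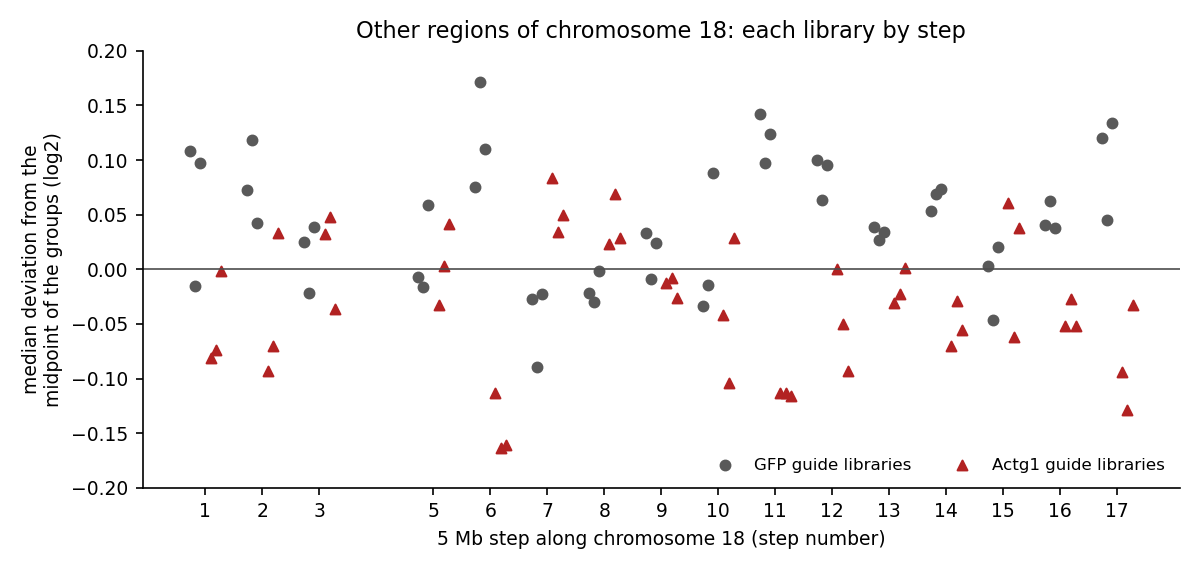
Median deviation, over the other regions of a step, of each library from the midpoint of the 2 group means, on the log2 scale, for the 16 steps with at least 20 tested regions. Red triangles (Actg1 guide libraries) lie above the grey circles (GFP guide libraries) in steps 7 and 8 and below them in most other steps.

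Steps with more genes tended to have higher medians of other regions, though not every step did. Over the 16 steps with at least 20 tested other regions, the median correlated with the number of RefSeq coding genes in the step at a Pearson r of 0.56 and a Spearman rho of 0.58. Without step 8, whose 119 genes include the protocadherin clusters, r was 0.50 and rho 0.48 over 15 steps. The number of tested other regions also rose with the number of coding genes (r = 0.65 over 18 steps). The medians of promoter and other regions correlated at r = 0.46 and rho = 0.49 over 14 steps. These are descriptions across steps that share the same libraries.

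Promoters were also compared by gene type and by signal level, beside 14.0% higher and 18.7% lower over all promoter regions of the table. Of the 251 tested promoter regions of protein-coding genes, 15 were called higher and 68 lower (27.1%), and of the 61 of other gene types 11 higher and 17 lower (27.9%). The share called lower was thus about the same in both. The promoter regions of long intergenic noncoding RNAs numbered 5 higher (29.4%) and 8 lower (47.1%) of 17, and those of antisense RNAs 0 higher and 4 lower (40.0%) of 10. When all tested regions of the table were divided into 5 classes by mean signal, the top class held 181 promoter regions of chromosome 18, with 9 called higher (4.97%) and 55 lower (30.4%). Over all chromosomes 13.6% of the promoter regions in that class were higher and 21.7% lower. The summed signal of these promoter regions fell by 6.82% on chromosome 18. The lowest class held 22 promoter regions, with 2 called higher (9.09%) and 6 lower (27.3%), beside 12.4% and 11.4% over all chromosomes, and their summed signal fell by 16.6%. In the top class, 26 other regions of chromosome 18 were called higher (14.5%) and 66 lower (36.9%) of 179, beside 21.4% and 30.1% over all chromosomes. Without GFP guide replicate 3 the coding promoters numbered 2 higher and 18 lower, the promoters of the top class 2 and 19, and the other regions of that class 19 and 36.

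**Figure D4:**
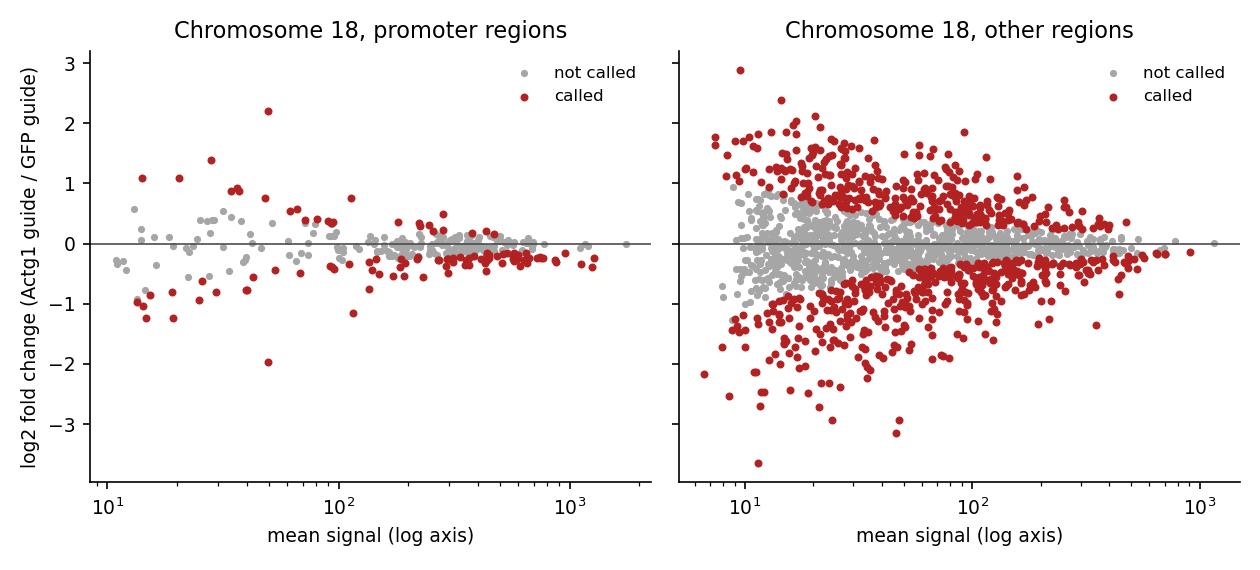
Log2 fold change (Actg1 guide over GFP guide) against mean signal on a log axis for each tested promoter region (left) and other region (right) of chromosome 18, with called regions in red. At a signal above 100, red promoter points lie mostly below 0, and the widest changes are at low-signal other regions.

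The 1000 bp limit decided the kind of a few regions. Just inside it lay a Svil region at 999 bp (log2 fold change -0.08, not called), a region at 997 bp from a small nucleolar RNA (snoRNA) gene (2.21, called) and a Slc26a2 region at 981 bp (0.37, not called). Just outside lay an Sh3rf2 region at 1012 bp (-0.75, called) and regions at 1030 bp from a long noncoding RNA gene (-0.34, not called) and at 1032 bp from a small nuclear RNA gene (-0.15, called).

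Pdgfrb encodes the beta receptor of platelet-derived growth factor, to which fibroblasts respond. Its promoter region, chr18:61044646-61045535 (mm10), had a signal of 433, 414 and 399 with the GFP guide and 325, 343 and 293 with the Actg1 guide. The groups did not overlap, and the log2 fold change was -0.36 (SE 0.08). The growth factor and receptor list, which also holds Spry4 and Camk2a, had 7 promoter regions. None was called higher and 2 lower (28.6%, beside 32.7% of all promoter regions called in either direction), with a median of -0.05. Without GFP guide replicate 3, 1 of the 7 was called lower. Both Hbegf regions (-0.05 and 0.04) and that of Spry4 (-0.02), an inhibitor of receptor tyrosine kinase signalling, were not called.

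In TGF-beta signalling, Smad2 carries the signal of the activated receptor to the nucleus. The Smad2 promoter region, chr18:76240934-76242458, had a signal of 927, 910 and 976 with the GFP guide and of 814, 780 and 746 with the Actg1 guide, without overlap (log2 fold change -0.28, SE 0.05). That of Bambi, a decoy receptor that blocks the pathway, was 460, 428 and 455 against 387, 361 and 378 (-0.26, SE 0.07), and was not called without GFP guide replicate 3 (-0.24). The promoter regions of Smad4, the common partner of the receptor Smads (-0.06), and of Smad7, the inhibitory Smad (0.03), were not called. Thus 2 of 4 promoter regions of this list were lower and none higher, with a median of -0.16. That is 50.0% called in a list of 4, beside 32.7% of all promoter regions.

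Of the 7 promoter regions of RNA processing and decay genes, 4 were called lower and 1 higher, with a median of -0.22. In all, 71.4% of this small list was called, beside 32.7% of all promoter regions. Phax, the adaptor that exports small nuclear RNAs, had a promoter signal of 498, 481 and 516 with the GFP guide and of 393, 339 and 369 with the Actg1 guide (-0.46, SE 0.07). Rbm27, an RNA-binding protein, went from 675, 643 and 633 to 538, 506 and 575 (-0.26). The libraries of the 2 groups did not overlap at either promoter. Etf1, the translation termination factor, was lower (-0.22), but not without GFP guide replicate 3 (-0.16). Rbm22, a splicing factor, was called higher at 0.21, a call that was lost with 6 separate libraries (0.18) and without GFP guide replicate 1 (0.19), GFP guide replicate 3 (0.12), Actg1 guide replicate 1 (0.18) or Actg1 guide replicate 2 (0.18). Matr3 (0.12) and Paip2 (0.16) were not called, although Matr3 was called higher under cyclic loess scaling (0.16).

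The list of actin and adhesion regulators, which also holds Lmnb1, had 12 promoter regions. Of these 3 were called higher and 2 lower, with a median of -0.02. Called regions made up 41.7% of them, beside 32.7% of all promoter regions. Lmnb1, which encodes the nuclear lamina protein lamin B1, had 623, 647 and 632 with the GFP guide and 546, 531 and 551 with the Actg1 guide, without overlap (-0.22, SE 0.06). The formin gene Diaph1, whose product nucleates actin filaments, was lower at -0.16, and this call was lost when any library but GFP guide replicate 1 was left out (-0.11 to -0.17) and under cyclic loess scaling (-0.12). The 3 higher calls were Mapre2, which binds growing microtubule ends (0.39), Apc, a scaffold of beta-catenin turnover (0.22), and Ctnna1, alpha-catenin (0.17). None of these 3 was called without GFP guide replicate 3 (0.37, 0.20 and 0.24). Mapre2 was also lost without GFP guide replicate 1 (0.36) and without Actg1 guide replicate 1 (0.38), Apc without Actg1 guide replicate 3 (0.20), and Ctnna1 without GFP guide replicate 1 (0.15), Actg1 guide replicate 1 (0.14) or Actg1 guide replicate 3 (0.18). The promoter of Rock1, a kinase that drives actomyosin contraction, had 567, 587 and 562 against 611, 556 and 580 and was not called (0.03).

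Of 11 promoter regions of transcription factor genes, 1 was called higher and 4 lower, with a median of -0.12. These calls are 45.5% of the list, beside 32.7% of all promoter regions. The higher one was Zeb1, a repressor of epithelial genes, at 191, 226 and 193 with the GFP guide and 236, 251 and 255 with the Actg1 guide (0.30, SE 0.09). The lower ones were Crem, a cAMP-responsive factor (-0.25), Nfatc1, a calcium-regulated factor (-0.26), Mbd2, which binds methylated DNA (-0.21), and Zfp236 (-0.86 at a signal of at most 21). Without GFP guide replicate 3 none of these 5 was called (Zeb1 0.24, Crem -0.24, Nfatc1 -0.29, Mbd2 -0.18, Zfp236 -0.91). Nfatc1 was also lost without GFP guide replicate 1 (-0.21), Mbd2 without Actg1 guide replicate 1 (-0.19), and Zfp236 without every library but Actg1 guide replicate 1 (-0.76 to -0.87). Egr1, an early growth response factor, had the promoter region of highest signal on the chromosome, 1663, 1758 and 1797 against 1804, 1671 and 1756. Its groups overlapped, and the log2 fold change was -0.01.

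The list of matrix genes, which also holds the receptor gene Colec12, had 2 promoter regions called lower of 4, with a median of -0.27. These are 50.0%, beside 32.7% of all promoter regions called in either direction. Lox had 464, 458 and 500 against 392, 438 and 371 (-0.27, SE 0.07), and Colec12, a collectin scavenger receptor, 322, 289 and 291 against 236, 251 and 257 (-0.27, SE 0.08). Neither pair of groups overlapped, and neither call was made without GFP guide replicate 3 (-0.21 and -0.30). Of the 10 desmosomal and classical cadherin genes only Cdh2, the N-cadherin of fibroblasts, had a promoter region. It was lower at -0.19, a call lost under cyclic loess scaling (-0.15) and without GFP guide replicate 2 (-0.16), GFP guide replicate 3 (-0.14), Actg1 guide replicate 2 (-0.14) or Actg1 guide replicate 3 (-0.18). All 6 promoter regions of genes for ribosome, mitochondria and proteasome assembly, such as Hspa9 and Tcof1, were not called, with a median of -0.01. Under cyclic loess scaling, Hspa9 was called higher (0.15, against 0.11).

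Innate immunity and antigen presentation was the list with the highest median, 0.18, and had 2 promoter regions called higher and 1 lower of 6. Called regions made up 50.0% of the list, beside 32.7% of all promoter regions. Cd74 encodes the invariant chain of MHC class II, a gene known from antigen-presenting cells. Its region at chr18:60803571-60803822, 151 bp from the TSS, had a low signal of 19, 13 and 14 with the GFP guide and 39, 38 and 46 with the Actg1 guide (log2 fold change 1.39, SE 0.24). A second Cd74 region, 772 bp from the TSS, had 13, 17 and 15 against 18, 12 and 20 and was not called (0.11). Cd14, a co-receptor for bacterial lipopolysaccharide, had 222, 225 and 215 against 288, 277 and 252, without overlap (0.31, SE 0.09), and was not called without GFP guide replicate 3 (0.28). The promoter of Tnfaip8, a gene induced by tumour necrosis factor, was lower at -0.27, and was not called without that library (-0.20).

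Beyond the lists, the promoters with the largest falls and the highest signals included Cdo1, Abhd3 and Garem1. Cdo1 encodes cysteine dioxygenase, which breaks down cysteine. Its promoter region, chr18:46727897-46728847, had 159, 187 and 168 with the GFP guide and 104, 93 and 105 with the Actg1 guide (-0.76, SE 0.12). Garem1, an adaptor of growth factor receptors, had 1358, 1316 and 1487 against 1114, 1017 and 1096 (-0.39, SE 0.05). Abhd3, a lipid hydrolase, had 180, 208 and 213 against 142, 128 and 148 (-0.54, SE 0.10). At each of these 3 promoters every Actg1 guide library was below every GFP guide library, and each stayed called with any 1 library left out. For promoters named as largest falls, the lack of overlap was a condition of naming. Sap130, a subunit of a histone deacetylase complex, was lower at -0.24 (1314, 1308 and 1438 against 1228, 1109 and 1151) and was not called without GFP guide replicate 3 (-0.17).

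A few more promoters were singled out after their values were seen, because they stayed called with any 1 library left out. Ndst1, an enzyme of heparan sulfate synthesis, was higher: 253, 237 and 223 with the GFP guide and 334, 326 and 329 with the Actg1 guide (0.49, SE 0.08). Mex3c, an RNA-binding ubiquitin ligase, was lower, with 1183, 1221 and 1287 against 980, 1010 and 962 (-0.34), and so was Rnf138, a ubiquitin ligase of DNA repair, with 876, 961 and 1017 against 762, 784 and 787 (-0.31). Nrep had 348, 318 and 323 against 270, 246 and 244 (-0.37). The groups did not overlap at any of the 4, which the way they were chosen made likely.

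The steepest fall of the chromosome at a mean signal of at least 30 lay in the gamma-protocadherin cluster, at a region with no assigned gene. The region chr18:37836210-37836770, within the bounds of Pcdhgc5 in RefSeq, had a signal of 87, 80 and 82 with the GFP guide and of 9, 4 and 16 with the Actg1 guide (log2 fold change -3.14, SE 0.32). Its neighbour at chr18:37835387-37836100 had 158, 140 and 123 against 41, 47 and 48 (-1.56). At both regions the groups were far apart. None of the 4 promoter regions of clustered protocadherins was called: Pcdhgc3, the only one with a signal above 25, had 352, 393 and 414 against 351, 375 and 388 (-0.08).

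Other steep falls were seen near melanocortin receptor genes and inside Zfp407. The region chr18:68389194-68389657, 17.5 kb from Mc2r, the receptor for adrenocorticotropic hormone, had 86, 99 and 77 with the GFP guide and 10, 15 and 7 with the Actg1 guide (-2.93, SE 0.27). Within Zfp407, a zinc finger gene, chr18:84236951-84237344 had 111, 99 and 105 against 27, 23 and 32 (-1.92, SE 0.19). Within the bounds of Dtna, the gene of alpha-dystrobrevin, chr18:23546735-23547150 had 57, 53 and 56 against 20, 9 and 11 (-2.05). In each of these the highest Actg1 guide library was below the lowest GFP guide library. Largest falls were named only from regions without overlap, so this was a condition of their choice.

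The largest rise of a promoter region was near Syt4, a synaptotagmin gene of vesicle release. It was the region 997 bp from a snoRNA gene, chr18:31467181-31467547, 19.9 kb from Syt4, with 19, 17 and 16 with the GFP guide and 84, 84 and 79 with the Actg1 guide (2.21, SE 0.19). Of 12 tested regions around Syt4, 7 were called higher and none lower. Over all chromosomes 22.2% of other regions were called higher and 21.1% lower. The bounds of this locus and of those below were set after the values were seen, and the counts depend on them. The second steep rise in step 7 was 9.8 kb from Gypc, the gene of the membrane protein glycophorin C: chr18:32569570-32570054 had 36, 43 and 39 against 138, 151 and 147 (1.86, SE 0.14). Both rises held with any 1 library left out.

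Csf1r and Pdgfrb are neighbours, and the regions around them changed in both directions. Csf1r, the receptor of colony-stimulating factor 1 and a gene known from macrophages, was assigned a region at chr18:61105433-61105639, 4938 bp from its TSS, with 12, 14 and 18 with the GFP guide and 44, 50 and 50 with the Actg1 guide (1.58, SE 0.23). On the Pdgfrb side, chr18:61058301-61058862 had 141, 178 and 142 against 46, 66 and 74 (-1.29), and a Pdgfrb region 1516 bp from the TSS had 69, 80 and 81 against 44, 39 and 49 (-0.81), beside the lower promoter described above. Of the 9 regions around the pair of genes, 3 were called higher and 3 lower. Over all chromosomes 22.2% of other regions were higher and 21.1% lower, and 14.0% and 18.7% of promoter regions. Close to the assigned Csf1r region, chr18:61108450-61108996 was not called (-0.27). The higher region chr18:61071887-61072258 lay between the Pdgfrb promoter region and the assigned Csf1r region. The remaining 2 higher calls were less stable: chr18:61071887-61072258 (0.49) was lost without Actg1 guide replicate 1 (0.44), and chr18:61106884-61107204 (0.42) without any library but GFP guide replicate 2 (0.33 to 0.58), under cyclic loess scaling (0.39) and with no filter on low values (0.42). The leukocyte markers Ptprc and Cd3e had no promoter region in any library, and what other cells could add to the Csf1r and Cd74 regions was not tested.

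**Figure D5:**
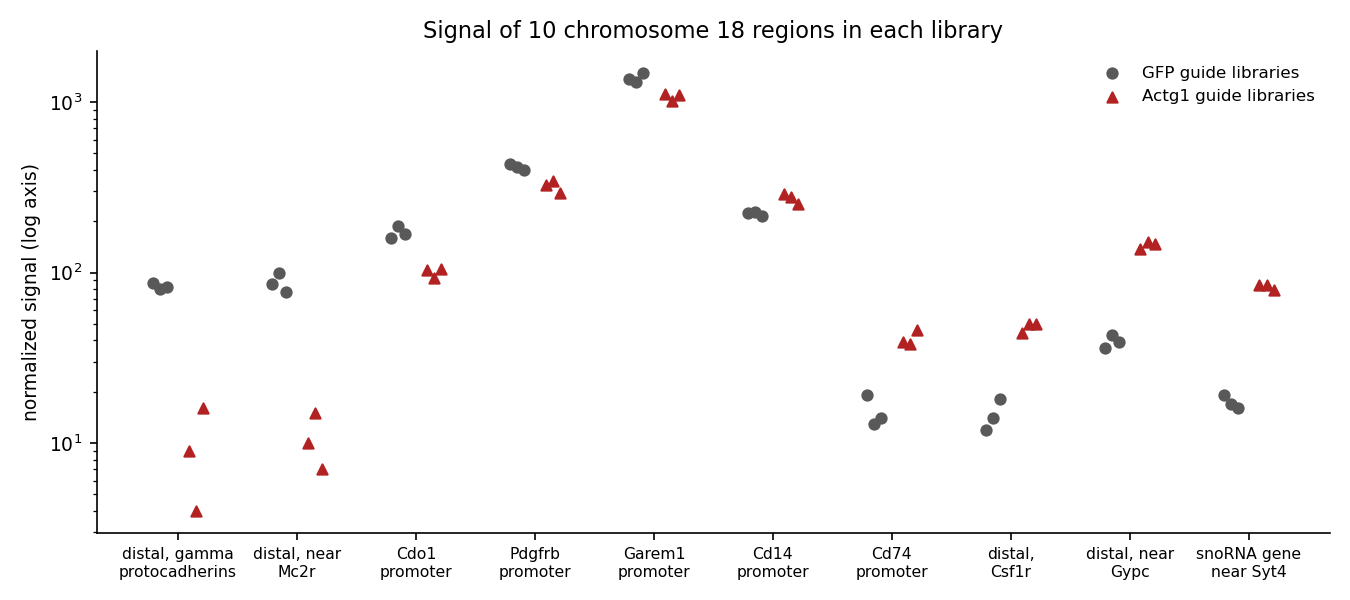
Normalized signal on a log axis of 10 chromosome 18 regions in each of the 3 GFP guide libraries (grey circles) and the 3 Actg1 guide libraries (red triangles). The 2 groups do not overlap at any of the 10, from the region in the gamma-protocadherin cluster (80 to 87 against 4 to 16) to the snoRNA gene region near Syt4 (16 to 19 against 79 to 84). Those named as largest rises or falls were taken only from regions without overlap.

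Around Map3k8, a kinase gene of inflammatory signalling, regions went both ways. Of the 7 tested regions 3 were called higher and 2 lower, beside 22.2% and 21.1% of all other regions. The regions chr18:4266234-4266606 (33, 31 and 34 against 107, 88 and 108) and chr18:4311197-4311525 (35, 28 and 29 against 79, 74 and 106) were higher at 1.58 and 1.47. Closer to the gene, chr18:4337936-4338400 was lower, at 25, 43 and 41 against 11, 12 and 12 (-1.60). The promoter region itself had 287, 296 and 279 against 245, 273 and 230. These did not overlap, and the region was not called (-0.20), although it was with 6 separate libraries (-0.21), with the replicate number as a block (-0.21) and without Actg1 guide replicate 2 (-0.26). The remaining higher region, at chr18:4279096-4279409 (0.70), was lost under cyclic loess scaling (0.64) and without any library but GFP guide replicate 1 or Actg1 guide replicate 2 (0.54 to 0.63), and the second lower one, 1704 bp from the TSS (-0.51), without GFP guide replicate 3 (-0.41).

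The loci of Pcdh1, a protocadherin outside the clusters, and Dynap, with bounds set after the values were seen, each held several regions called higher. Over all chromosomes 22.2% of other regions and 14.0% of promoter regions were called higher. At Pcdh1 all 3 regions were called higher: chr18:38221939-38222408 had 34, 44 and 42 against 124, 122 and 103 (1.50), chr18:38205402-38205890 had 43, 38 and 56 against 103, 115 and 111 (1.18), and the promoter region had 53, 36 and 55 against 90, 69 and 62 (0.55). The promoter call was lost without GFP guide replicate 3 (0.70) and without Actg1 guide replicate 1 (0.40). At Dynap 3 of 4 regions were called higher, the strongest at chr18:70226314-70226702 with 33, 26 and 26 against 87, 96 and 83 (1.64). The Dynap promoter had 48, 64 and 50 against 73, 80 and 85 (0.57), a call lost without GFP guide replicate 3 (0.49).

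Neighbouring regions less than 100 kb apart shared the sign of their change somewhat more often than not. Among tested regions less than 5 kb apart, 60.2% of 522 neighbouring pairs had the same sign of the fold change, against 59.7% of pairs over all chromosomes, and the correlation of their log2 fold changes was 0.25 against 0.30. Beyond 100 kb the correlation was -0.08 over 128 pairs, of which 39.8% had the same sign, against 0.07 and 52.9% over all chromosomes. These pairs share the same libraries, and the correlations are descriptions.

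Stretches of at least 4 consecutive tested regions called in the same direction numbered 15, of which 13, with 57 regions, were lower and 2, with 8 regions, were higher. They were collected after the values were seen. Such stretches were not counted on other chromosomes, and whether they exceed what scattered calls would give was not tested. The number depended on the libraries: without GFP guide replicate 3 there was 1 higher and no lower stretch, and without Actg1 guide replicate 1 there were 9 lower and no higher ones, while 6 separate libraries gave 16 lower and 5 higher. The longest, with 6 regions, ended at the Cdo1 promoter and spanned chr18:46644346-46728847. Its summed signal was 581, 650 and 589 with the GFP guide and 338, 324 and 364 with the Actg1 guide, and its log2 fold changes lay between -1.08 and -0.71.

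Stretches of 5 regions lay at Mcc, at Zfp438 and at Zfp608. The one at Zfp608, a zinc finger gene, spanned chr18:54885326-54932315, in step 11. Its sums were 891, 893 and 973 against 549, 572 and 636. Another, of 4 regions, lay at Celf4, an RNA-binding protein gene, with sums of 553, 550 and 595 against 323, 332 and 348. Its steepest region, chr18:25540440-25540782, had 157, 164 and 177 against 54, 58 and 64 (-1.51). One more, also of 4 regions, lay at Snx24, a sorting nexin gene in step 11, with sums of 1175, 1229 and 1234 against 842, 811 and 833.

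Lower and higher regions also stood side by side within single genes. Within Nfatc1, 4 consecutive regions over chr18:80636062-80639326 were lower, with sums of 220, 255 and 252 against 87, 95 and 104. The next region, chr18:80642546-80642812, was higher, with 118, 116 and 152 against 226, 242 and 222 (0.78). Within Smad7, whose promoter was not called, 4 consecutive regions over chr18:75386129-75392371 were lower, with sums of 555, 598 and 604 against 340, 392 and 372, and so was the region chr18:75378614-75378942 at 95, 107 and 97 against 38, 31 and 33 (-1.52). The region before it, chr18:75375423-75375894, was higher, with 285, 269 and 255 against 340, 319 and 318 (0.29), a call lost without GFP guide replicate 3 (0.23). Of the 13 tested regions around Smad7, 3 were called higher and 5 lower, beside 22.2% and 21.1% of all other regions.

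The 2 higher stretches were at Syt4, chr18:31352595-31438966, with sums of 63, 46 and 64 against 133, 156 and 119, and beside Rab18, a small GTPase gene, chr18:6700923-6761131, with sums of 407, 421 and 458 against 570, 585 and 574. In both, every Actg1 guide library was above every GFP guide library. Stretches were built only from regions called in the same direction, so this order is no separate result. The Syt4 stretch belongs to step 7, where the other regions had the largest rise of summed signal.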

How the data were processed

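ATAC-seq signal was compared between 3 Actg1 guide and 3 GFP guide libraries of Cas13d knock-in NIH/3T3 cells. For 63430 regions the authors deposited a score per library, a read count that had been normalized between libraries and rounded to whole numbers. This reading rests on the values; its formula is not stated. Per the file headers, the table also holds the distance to the TSS and the fraction of each region that overlaps the assigned gene, which was not used. The submitters' processing notes list STAR 2.7.10a, Trimmomatic 0.39 and Picard 3.0.0 beside featureCounts as the authors' tools, on build mm10, without saying what each did; DESeq2 1.36.0 is also on the authors' list. How peaks were called and whether the Tn5 offset was corrected is not given in the sources used here.

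Values were taken as log2(signal + 1), and the 61327 regions that reached 10 in 3 or more libraries were modelled together with limma 3.58.1 (R 4.3.3; trended variance, no covariate), a procedure also tested on simulated data. Replicates were compared by a chi-square per region on estimated reads. Reads per library were estimated from the uneven use of small whole numbers. Gene bounds came from RefSeq (GRCm38.p6, the build of mm10), which held 269 of the assigned gene symbols, and 97.0% of these had a bound within 1 kb of the deposited one. It gives no exons, so exon and intron were not told apart. Promoter regions of the gene lists, the 8 largest rises and falls of each kind at a mean signal of at least 30 without overlap, the 4 strongest regions of each kind and the 2 strongest called regions of the extreme steps were eligible to be named; loci and stretches were added after their values were seen. The members, lists and tests were chosen with earlier results of these data known. Some regions that this rule would name are not reported here.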

Additional observations from a re-analysis of the deposited data

How the results depend on the processing

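The direction of both medians was the same under every alternative run. Under cyclic loess scaling the promoter median was -0.070 and the median of other regions -0.086. With 6 separate libraries the median of other regions was -0.062, and 29 promoter regions were called higher and 96 lower. The replicate numbers do not pair the libraries (correlations of deviations between same-numbered libraries 0.025, 0.014 and 0.016); with the replicate number as a block the median of other regions was -0.062, and 31 promoter regions were called higher and 98 lower. With promoters defined within 500 bp, 17 were called higher. Within 5 kb, 221 were called, 83 higher and 138 lower, and the medians were -0.067 for promoter and -0.086 for other regions. Leaving out 1 library at a time gave 32 to 105 promoter regions called (8 to 26 higher, 24 to 79 lower), 415 to 744 other regions (213 to 335 higher, 202 to 409 lower), promoter medians of -0.094 to -0.083 and medians of other regions of -0.081 to -0.056; the lowest counts were without GFP guide replicate 3, and the promoter regions called higher also fell to 17 without Actg1 guide replicate 1. Over all alternatives, 12 to 14 steps of promoter regions and 12 to 16 of other regions had a median below 0. Of 178 regions followed, 70 lost their call without GFP guide replicate 3, 8 under cyclic loess scaling and 1 with 6 separate libraries. Regions that were not called and lay near 0 changed sign: Egr1 was 0.042 under cyclic loess scaling, 0.0036 with 6 separate libraries and 0.0036 with the replicate block, and -0.033 to 0.027 with 1 library left out. So did the second Cd74 region (-0.026 to 0.32), Smad4 (-0.12 to 0.0095) and the strongest other region, chr18:39488931-39491930 within Nr3c1 (-0.021 to 0.023). The causes were not tested. Regions of low signal had larger errors, with an SE of 0.32 for the second Cd74 region and 0.04 for Egr1.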
